A study of Populus ussuriensis with 12 samples.

Results

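The 6 root libraries of PuHSFA4a-overexpressing *Populus ussuriensis* (OE) were compared with the 6 wild-type libraries (WT), pooled over both media, with the medium as a covariate. All 12 libraries of the series entered the comparison. *P. ussuriensis* is a poplar of northeast Asia, grown here in vitro. The groups, of 3 libraries each, were OE on excess Zn, WT on excess Zn, OE on control medium and WT on control medium. The roots came from plants 21 days old. The protocol, worded alike for every library, gives 1 week of pre-culture and 2 weeks on medium with 1.2 mM zinc sulfate; only the Zn groups were taken to have received it. The labels name neither the promoter of the transgene nor the number of transgenic lines, and give no word on separate plants or cultures behind libraries of 1 group. The p-values below therefore reflect the spread between these libraries alone.

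Heat shock transcription factors are DNA-binding proteins that form trimers and bind heat shock elements in promoters. Members of class A carry an activation domain and can switch on genes of heat shock proteins and of antioxidant defence. Class A4 members of rice and wheat are known for raising tolerance to cadmium, a metal that enters plants partly through zinc transporters. Zinc is a cofactor of many enzymes and is toxic to roots in excess. The question of the pooled comparison is which genes differed between the genotypes on average over the media, with more libraries per genotype than either medium gives alone. A call does not require a difference in both media.

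Total counts ran from 15594001 to 21206585 per library. Levels are counts per 1000000 (CPM) of TMM-scaled library size, where TMM is the trimmed mean of log ratios between libraries. The detection floor of 3 counts corresponds to 0.141 to 0.192 CPM and allows for counting error alone. Of 39602 genes in the files 25871 passed a low-count filter and were tested. The deposited files pair no gene ID with a name, so apart from the HSFA4 loci no gene below is given a function, and the tissue label was not checked against root markers. Libraries of WT stood apart at 2 places in the genome that are given in turn below, and other places were not searched library by library. Over all genes the replicates that differed most were WT Zn 1 and WT Zn 3 (chi-square 31.5 per degree of freedom). At the HSFA4a locus WT control 1 and WT control 2 stood above WT control 3 and the WT Zn libraries. WT control 3 and WT Zn 3 were low over the start of chromosome 13.

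The overexpressed gene was higher in all 6 OE libraries than in any WT library. Potri.011G071700.v3.0, on the minus strand of chromosome 11 at 6828550 to 6830854 (positions are those of the deposited files), is called the HSFA4a locus here on general knowledge of the *P. trichocarpa* gene set, since the files name no genes. Reads of the transgene and of the plant's own gene were not separated there. It had 267, 239 and 266 CPM in the OE Zn libraries, against 33.1, 32.5 and 33.1 CPM in the WT Zn libraries. On control medium it had 331, 347 and 340 CPM in OE, against 129, 165 and 37.1 CPM in WT. The genotypes did not overlap in either medium, but WT control 1 and WT control 2 stood well above the other 4 WT libraries. Among the WT control libraries, WT control 3 was the one apart, near the level of the WT Zn libraries. Over both media the locus was 4.85-fold higher in OE (log2 fold change 2.28 with an SE of 0.35) and ranked 12 among all genes by p. Its adjusted p of 0.0805 in edgeR (quasi-likelihood test) missed the threshold of 0.05. An exact two-sided permutation test of this locus alone, with genotype permuted within each medium, gave p = 0.005, the smallest value that its 400 arrangements allow. That value follows from the separation of the genotypes in both media, so it adds nothing to it. The locus passed with limma-voom (adjusted p = 0.0193) and DESeq2 (adjusted p = 6.74e-07). With single libraries left out, edgeR called it without WT control 2 (adjusted p = 0.0274), 1 of the libraries that stood high there, and in none of the other 11 cases (largest adjusted p 0.260). It did not pass in edgeR on control medium alone (log2 fold change 1.62, adjusted p = 0.492) or without the medium as a covariate (2.06, adjusted p = 0.712). On Zn alone it passed in edgeR (2.97, adjusted p = 4.13e-06). In the edgeR fit of all 4 groups the Zn contrast did not pass (2.97, adjusted p = 0.0575).

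**Figure D1:**
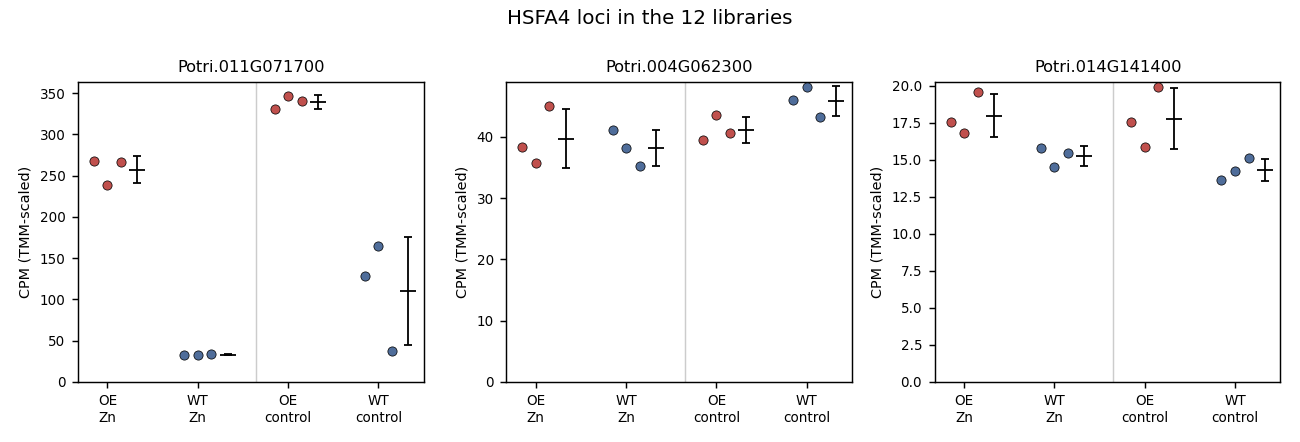
CPM of the 3 HSFA4 loci (y axis, linear) in each library, grouped by genotype and medium (x axis); points are libraries, bars the mean and SD of 3. At Potri.011G071700 the 6 OE libraries lie between 239 and 347 CPM and the WT libraries between 32.5 and 165 CPM.

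The 2 related loci, assigned on the same basis, differed far less. Potri.014G141400.v3.0 (chromosome 14, 10765224 to 10768161, minus strand) had 17.5, 16.8 and 19.6 CPM in OE Zn, against 15.8, 14.5 and 15.4 CPM in WT Zn. Control medium gave 17.6, 15.8 and 19.9 CPM in OE, against 13.6, 14.2 and 15.1 CPM in WT. Each OE library lay above each WT library of its medium, by a narrow margin. The pooled log2 fold change was 0.27 (SE 0.07). The exact permutation p of 0.005 is again the smallest possible and follows from that separation, so it adds nothing to it. The locus did not pass the test across genes (edgeR adjusted p = 0.271). Potri.004G062300.v3.0 (chromosome 4, 5144445 to 5146824, minus strand) had 38.4, 35.7 and 45.0 CPM in OE Zn, against 41.1, 38.1 and 35.2 CPM in WT Zn. Control medium gave 39.4, 43.5 and 40.6 CPM in OE, against 46.1, 48.1 and 43.3 CPM in WT. Its genotypes overlapped in both media (log2 fold change -0.05, SE 0.07, exact permutation p = 0.51). These 3 permutation tests were the only ones run.

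Pooling the media gave 7 genes with an edgeR adjusted p under 0.05, which is 0.0271% of the 25871 genes tested. Of these, 3 were higher (0.0116%) and 4 lower (0.0155%) in OE. With all 4 groups in the fit, the contrasts within Zn and within control medium each called 0 genes in edgeR, with 1845 genes on Zn and 2296 on control medium at an unadjusted p under 0.05. Within the media limma-voom called 0 genes in each, and DESeq2 called 64 on Zn and 83 on control medium. At an unadjusted p under 0.05 the pooled fit held 2395 genes (9.26%). Limma-voom called 8 genes (0.0309%), the same 7 and the HSFA4a locus, and DESeq2 called 176 (0.694%), all 7 among them. In whole roots, fewer cells of a type and less RNA per cell cannot be told apart. In all 7 genes the OE libraries lay on 1 side of the WT libraries in both media, as in 325 (1.26%) of all genes tested. The 7 were selected by the genotype contrast of these same libraries, which favours such separation, so it adds no separate support. Of the 7, 4 remained called whichever single library was left out. These were Potri.T051700.v3.0, Potri.T051900.v3.0, Potri.010G035500.v3.0 and Potri.013G074500.v3.0. The count fell to 4 without WT control 1, OE control 2, OE control 3, OE Zn 1 or OE Zn 2, each left out alone. Without WT control 1 and 2 together, WT control 3 was the only WT control library left. The log2 fold change at the HSFA4a locus, where the omitted libraries stood high, was then 3.04.

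**Figure D2:**
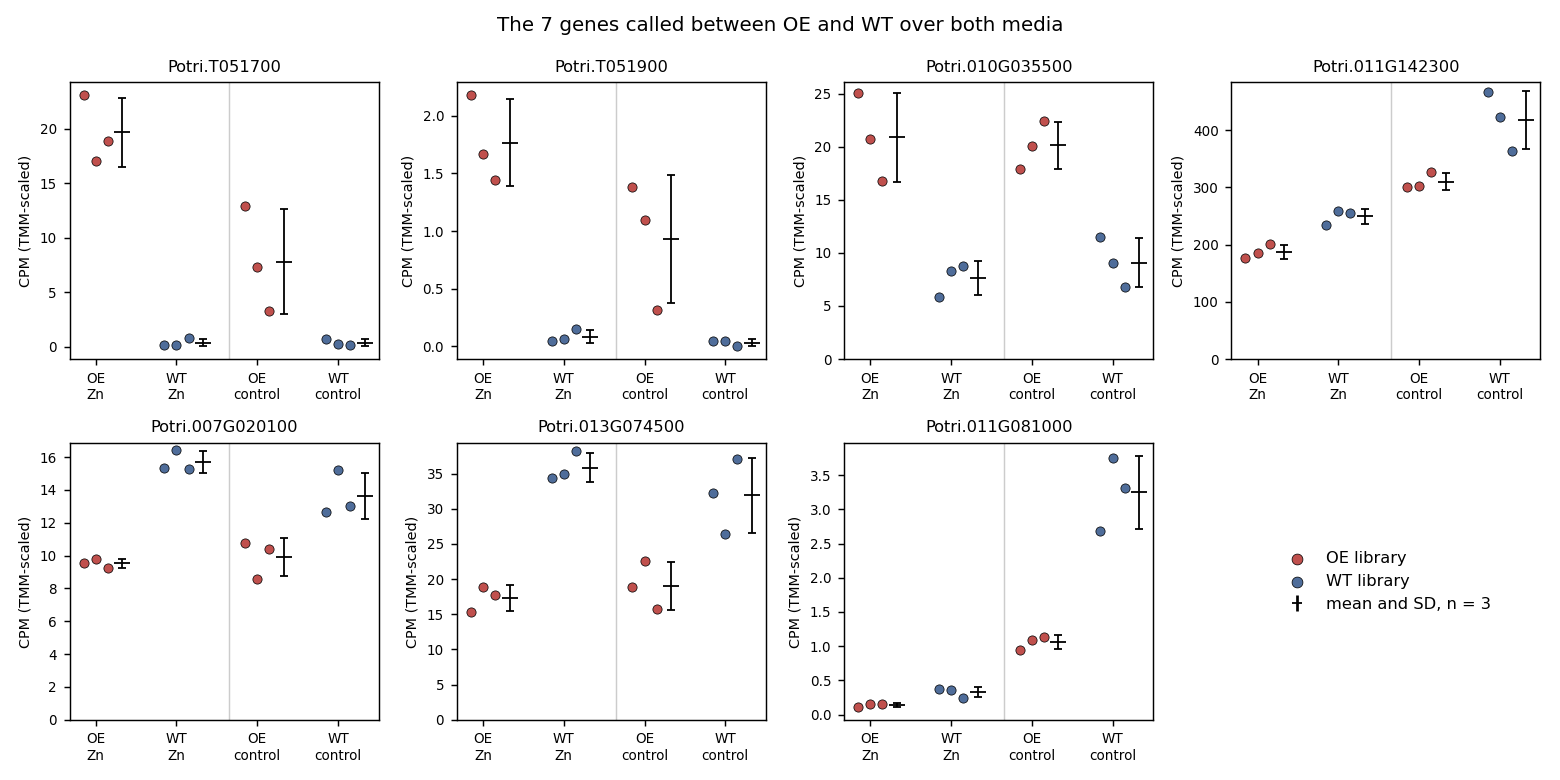
CPM of the 7 genes called between OE and WT over both media (y axis, linear), by genotype and medium (x axis); points are libraries, bars the mean and SD of 3. The genotypes separate in both media in every panel, for genes selected on this contrast. Potri.011G142300 and Potri.011G081000 also differ between the media.

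Among the 7 called genes the largest fold change was that of Potri.T051700.v3.0 (scaffold 48, 130858 to 151503, minus strand), near the floor in WT and well above it in OE. It had 23.1, 17.0 and 18.9 CPM in OE Zn, against 0.142, 0.183 and 0.752 CPM in WT Zn. The OE control libraries had 12.9, 7.29 and 3.28 CPM, against 0.720, 0.253 and 0.116 CPM in WT control. The lowest OE library thus stood above the highest WT library, although the OE control libraries spread widely among themselves. Its mean of 7.05 CPM over all libraries passed the limit of 5 CPM set for naming through OE alone. That mean was 13.7 CPM in OE and 0.361 CPM in WT. The counts behind these levels were 1544 over the 6 OE libraries and 43 over the 6 WT libraries. Scaled for library size, OE stood at 37.7 times WT, with 95% exact binomial bounds of 27.9 and 52.3 that allow for counting error alone. The fitted log2 fold change was 5.11 (SE 0.47, edgeR adjusted p = 0.00464), and it was between 4.82 and 5.62 with each library left out.

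Potri.T051900.v3.0 (scaffold 48, 149540 to 152224, minus strand) overlaps Potri.T051700.v3.0 by 1964 bases on the same strand, so their reads may be shared and they are not 2 independent findings. It was named, as were all called genes beyond 2 in each direction, after its values were seen. It had 2.18, 1.67 and 1.44 CPM in OE Zn, against 0.0473, 0.0610 and 0.150 CPM in WT Zn. With control medium the values were 1.38, 1.10 and 0.315 CPM in OE, against 0.0480, 0.0507 and 0 CPM in WT. All WT values rest on 0 to 3 counts a library, 7 in all, against 151 counts in OE. The gene thus passed the low-count filter through OE libraries only, and it was not among the genes tested on control medium alone. The scaled ratio was 22.7, with bounds of 10.7 and 57.3 by the same method, and the edgeR adjusted p was 0.00466. The call was lost on Zn alone (adjusted p = 0.111 in edgeR) and without WT control 1 and 2 together (adjusted p = 0.0642 in edgeR). Its counts were 7.65% to 15.04% of those of Potri.T051700.v3.0 in the OE libraries. Inside the same span, Potri.T051800.v3.0, had 0 counts in all 12 libraries, and the genes on either side, Potri.T051600.v3.0 and Potri.T052000.v3.0, were too low to be tested.

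Potri.010G035500.v3.0 (chromosome 10, 6179489 to 6180663, minus strand) was also higher in OE, by 2.45-fold. On Zn it had 25.1, 20.7 and 16.8 CPM in OE, against 5.86, 8.29 and 8.77 CPM in WT. The control libraries gave 17.9, 20.1 and 22.4 CPM in OE, against 11.5, 9.02 and 6.79 CPM in WT. Levels in OE were alike in the 2 media, and every OE library exceeded every WT library of either medium. The log2 fold change was 1.30 (SE 0.15, edgeR adjusted p = 0.00642) and stayed between 1.21 and 1.41 with each library left out.

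Among the genes lower in OE, Potri.013G074500.v3.0 (chromosome 13, 6385810 to 6388841, minus strand) stood at about the same level in both media. It lies outside the chromosome start described below. It had 15.4, 18.9 and 17.8 CPM in OE Zn, against 34.4, 34.9 and 38.2 CPM in WT Zn. Control medium gave 18.9, 22.5 and 15.7 CPM in OE, against 32.3, 26.5 and 37.1 CPM in WT. The highest OE library, OE control 2, stayed below the lowest WT library, WT control 2. The log2 fold change was -0.89 (SE 0.11, edgeR adjusted p = 0.00642), from -0.97 to -0.84 with each library left out.

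Potri.007G020100.v3.0 (chromosome 7, 1509842 to 1512537, minus strand) showed a smaller difference of the same kind. In OE Zn it had 9.53, 9.81 and 9.23 CPM, against 15.4, 16.5 and 15.3 CPM in WT Zn. The control libraries gave 10.8, 8.60 and 10.4 CPM in OE, against 12.7, 15.2 and 13.0002 CPM in WT. No OE library reached a WT library in either medium. The log2 fold change was -0.59 (SE 0.09, edgeR adjusted p = 0.0399), and the call held without OE control 1 or WT control 3 but was lost without any other single library (largest adjusted p 0.146).

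The remaining pair of lower genes, both on chromosome 11, also differed between media. Potri.011G142300.v3.0 (16357138 to 16359732, plus strand) had 176, 185 and 200 CPM in OE Zn, against 234, 258 and 255 CPM in WT Zn. On control medium it had 301, 302 and 326 CPM in OE, against 466, 423 and 364 CPM in WT. Each medium kept the genotypes apart, while OE control libraries stood above WT Zn libraries. The medium took 72.0% of the summed squares of its log2(CPM + 0.5) values and the genotype 23.4%. Its log2 fold change was -0.42 (SE 0.06, edgeR adjusted p = 0.0399), and the call held without WT control 3, WT Zn 1 or OE Zn 3 and was lost without any other single library (largest adjusted p 0.180).

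Potri.011G081000.v3.0 (8093775 to 8095671, plus strand) was close to the floor on Zn. It had 0.109, 0.152 and 0.155 CPM in OE Zn, from 2 or 3 counts a library, against 0.378, 0.366 and 0.251 CPM in WT Zn, from 5 to 8 counts. Its level on control medium was 0.938, 1.10 and 1.13 CPM in OE, against 2.69, 3.75 and 3.31 CPM in WT. The control libraries, with 17 to 20 counts in OE and 56 to 74 in WT, carried most of the data. The log2 fold change was -1.51 (SE 0.22, edgeR adjusted p = 0.0399). With single libraries left out the call held without WT Zn 3 and was lost in the other 11 cases (largest adjusted p 0.201).

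A pooled value can hide unlike effects in the media. The effects on Zn and on control medium, which rest on separate libraries, are therefore set side by side. At the HSFA4a locus the log2 fold change was 2.97 on Zn (SE 0.41) and 1.62 on control medium (SE 0.38). Potri.T051700.v3.0 had 5.73 on Zn (SE 0.64) and 4.35 on control medium (SE 0.65). For Potri.010G035500.v3.0 the values were 1.45 on Zn and 1.14 on control medium, and for Potri.013G074500.v3.0 they were -1.04 on Zn and -0.74 on control medium. Potri.007G020100.v3.0 stood at -0.72 on Zn and -0.46 on control medium. Potri.011G142300.v3.0 had -0.41 on Zn and -0.43 on control medium. Potri.011G081000.v3.0 had -1.21 on Zn (SE 0.42) and -1.62 on control medium (SE 0.27).

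The difference between media was not called at any of the 10 loci described above (edgeR quasi-likelihood interaction, smallest adjusted p 0.779 at the HSFA4a locus, interaction log2 1.34, SE 0.54, unadjusted p = 0.0309). Across all genes the interaction called 0 genes in edgeR, with 1627 at an unadjusted p under 0.05. It called 0 in limma-voom and 5 in DESeq2. With WT control 3 left out, the interaction at the HSFA4a locus passed (edgeR adjusted p = 0.000395), with a log2 fold change of 2.97 on Zn and 1.21 on control medium. WT control then rests on the 2 libraries that stood high there.

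Across all 25871 genes the 2 media gave the same sign for 13713 genes, or 53.0%, and 52.7% with the start of chromosome 13 set aside. The log2 fold changes on Zn and on control medium were weakly related (Pearson r = 0.088, Spearman rho = 0.10), a description across genes, which are not replicates. Same-sign shares ran from 50.7% without WT control 2 to 55.1% without WT control 3. Shares of the summed squares of log2(CPM + 0.5) had medians over genes, taken for each term apart, of 30.8% for the medium and 3.99% for the genotype. Those of their interaction and of the residual were 3.51% and 48.8%. For the 5 called genes other than the chromosome 11 pair, the genotype took 81.6% to 88.3%, a value fixed in part by their selection on the same contrast.

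**Figure D3:**
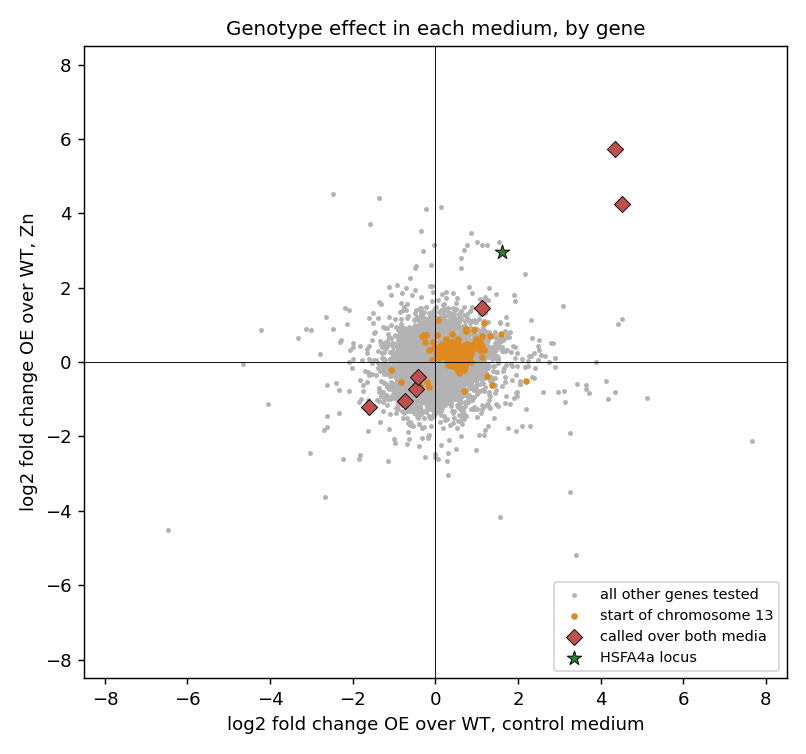
Log2 fold change of OE over WT on Zn (y axis) against that on control medium (x axis) for 25871 genes; each point is a gene, with the 7 called genes, the HSFA4a locus and the genes at the start of chromosome 13 marked. Most genes form a round cloud with r = 0.088. The 7 called genes, selected on the pooled contrast of the same libraries, lie in the quadrants where both media have the same sign.

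Beyond the 7 calls the genotypes differed little in most genes. The median absolute log2 fold change was 0.090, the median SE 0.108, and 90% of genes had an absolute value up to 0.37. A difference of 1 or more on the log2 scale was fitted for 192 genes (0.742%), 92 higher and 100 lower in OE. In 21 of these the OE libraries lay on 1 side of the WT libraries in both media, 14 of them higher and 7 lower. Such separation in both media, at any size, was seen for 325 genes (1.26%), 160 higher and 165 lower.

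Genes with an unadjusted p under 0.05 were spread over the genome. Outside the start of chromosome 13 there were 2286 of 25631 (8.92%), 1000 higher and 1286 lower in OE. The share ran from 6.96% on chromosome 12 to 10.6% on chromosome 11, which carries the HSFA4a locus and 2 of the called genes. Lower genes outnumbered higher ones on 14 of 19 chromosomes. On unplaced scaffolds, where the overlapping pair of called genes lies, there were 58 of 651 (8.91%), 39 higher and 19 lower.

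**Figure D4:**
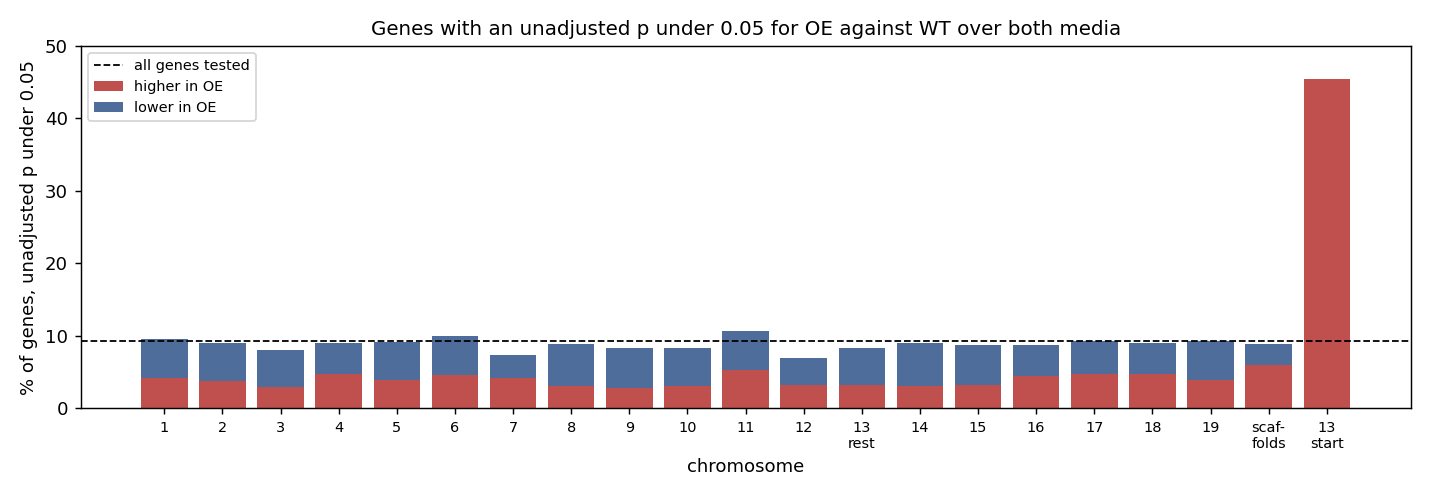
Share of tested genes whose unadjusted p for the genotype, over both media, was under 0.05 (y axis, percent), by chromosome (x axis), split into higher and lower in OE; the dashed line is the share over all genes, 9.26%. Chromosomes and scaffolds lie between 6.96% and 10.6%, and the start of chromosome 13 stands at 45.4%, all of it higher in OE.

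Genes of chromosome 13 that start below 2300000 were kept apart. Of the genes there 240 were tested, and 233 of them (97.1%) were higher in OE, against 48.6% of all other genes. The 240 had a median log2 fold change of 0.38 (interquartile range 0.27 to 0.47) against -0.004 over all other genes. None of the 240 passed in the edgeR test (smallest adjusted p 0.244), while 109 (45.4%) had an unadjusted p under 0.05, each higher in OE. Limma-voom called 0 of the 240 and DESeq2 called 3, where DESeq2 called 176 (0.694%) over all genes. The whole list of 7 calls and its split were unchanged when these genes were left out before scaling.

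Over this chromosome start the WT libraries differed among themselves. The median log2 deviation from the 6 libraries of the medium was 0.161, 0.137 and 0.144 in OE Zn, against 0.169, 0.159 and -0.735 in WT Zn. On control medium it was 0.262, 0.267 and 0.279 in OE, against 0.0185, -0.212 and -0.599 in WT. The OE libraries were alike, whereas WT Zn 3 and WT control 3 were far below them and WT Zn 1 and 2 stood level with OE Zn. Over the other genes of chromosome 13 the same measure lay between -0.0048 and 0.0162 in every library. All OE libraries lay above all WT libraries for 22 genes on Zn (9.17%), for 145 on control medium (60.4%) and for 12 in both media. Elsewhere the shares were 6.05% on Zn, 6.93% on control medium and 0.577% in both media. Without WT control 3 and WT Zn 3 the median log2 fold change was 0.17, and 23.0% had an unadjusted p under 0.05. Without these 2 libraries 9 genes were called over the genome, 5 of them among the 7.

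At the limit of 2300000 the median changed over a few genes. The last 10 tested genes inside, starting at 2174208 to 2299361, had a median log2 fold change of 0.37, with 8 higher in OE. The first 10 outside, starting at 2307032 to 2441357, had a median of -0.010, with 4 higher. The cause of the low levels in these WT libraries was not tested.

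**Figure D5:**
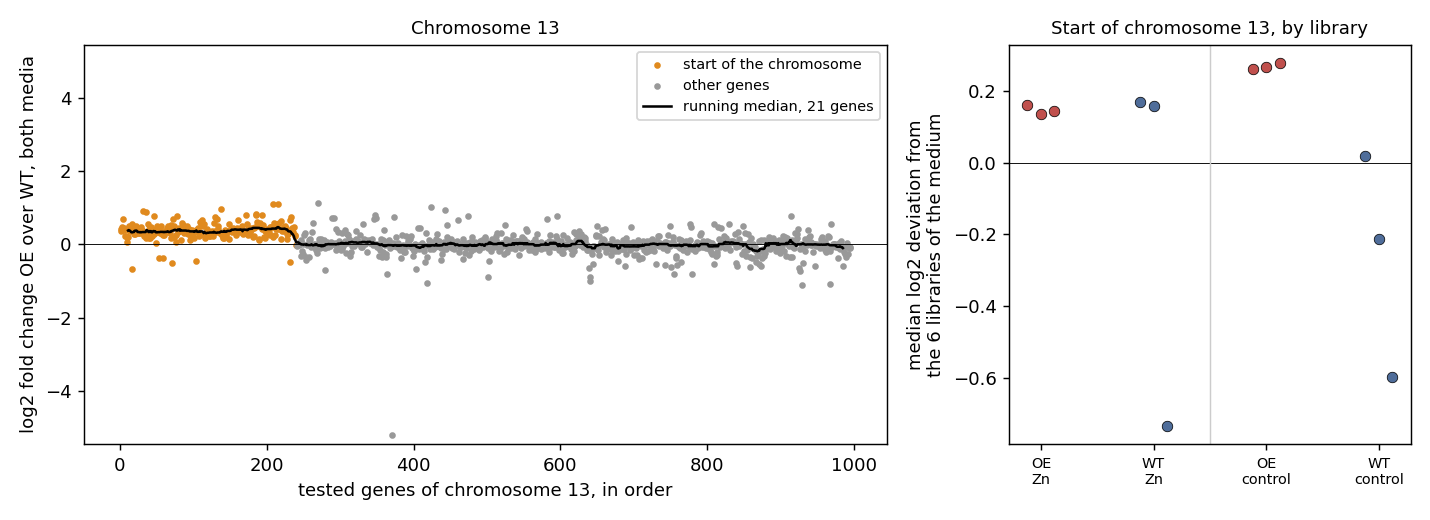
Left, log2 fold change of OE over WT over both media (y axis) for the tested genes of chromosome 13 in order (x axis), with a running median of 21 genes. Right, median log2 deviation of each library over the 240 tested genes at the chromosome start (y axis), by genotype and medium (x axis); the running median drops to about 0 after the start, and WT Zn 3 and WT control 3 are the lowest libraries.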

How the data were processed

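The deposited files hold, for each library, an estimated count, an FPKM value and a normalized signal value per gene, per the file headers. The submitters' processing notes list TopHat2 2.1.1 and HTSeq 0.6.0, with neither build nor strand setting. The deposited counts, already whole, entered the tests unrounded; for 32.7% to 34.1% of detected genes they are 1 above the value that the authors' normalized signal implies. The authors' FPKM values were not used.

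The main test was that of edgeR 4.0.16 in R 4.3.3 (robust quasi-likelihood, TMM, filterByExpr over the 4 groups), in an additive model of medium and genotype with 9 residual degrees of freedom and Benjamini-Hochberg adjustment over 25871 genes. The biological coefficient of variation was 14.5%. Each SE was taken as |log2 fold change| over the root of the F statistic. Contrasts within media and the interaction came from a fit of 4 group means. DESeq2 1.42.0 and limma 3.58.1 were alternatives; DESeq2 gave an adjusted p to 25353 genes. Replicate libraries differed by more than sampling noise (chi-square 5.52 to 31.5 per degree of freedom).

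Named were the HSFA4 loci and the 2 higher and 2 lower genes that differed most among called genes averaging 5 CPM or more whose genotypes were apart in both media; the other 3 called genes were added after their values were seen. Members and lists were chosen with earlier results of these data known. Lists defined by gene descriptions could not be filled.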

Additional observations from a re-analysis of the deposited data

How the results depend on the processing

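The count of 7 called genes was 176 with DESeq2, 4 without the medium covariate, 0 on control medium alone (2222 genes at an unadjusted p under 0.05), 4 on Zn alone, 4 without WT control 1 and 2, and 4 when a log2 difference of 1 or more was also asked for. It ran from 4 to 9 with each library left out, and under the other settings from 6 to 9. The HSFA4a locus passed in 7 of 27 alternatives and missed the threshold in 20. Its log2 fold change passed at 2.29 with DESeq2, 2.40 with limma-voom and 2.28 without the robust option. It also passed at 2.29 as the mean of the within-medium contrasts and at 2.97 on Zn alone. Without WT control 1 and 2, which keeps WT control 3 as the only WT control library, it was 3.04. The 2 libraries were left out for their high level at this locus, so that the larger value follows from the choice. With single libraries left out it was 2.14 to 2.54 and passed in 1 of 12 cases. In edgeR its adjusted p was at most 0.712, without the medium covariate, and was 0.492 on control medium alone. The median over the chromosome 13 start was 0.27 to 0.46 with single libraries left out and 0.17 to 0.55 under the other settings. The same-sign share ran from 50.7% to 55.1%, and the interaction called 0 to 1 of the named loci, with single libraries left out. Potri.004G062300.v3.0 turned to 0.058 on Zn alone and to 0.016 without WT control 1 and 2. The cause of these changes was not tested. The fits of 1 medium also hold fewer libraries, and what that contributes was not tested either. Alternatives for the interaction, and all but the tool and library alternatives for named genes, were chosen after the data were seen. No paired analysis was possible because the labels give no replicate numbers. Low levels limit the fold changes of Potri.T051900.v3.0 and Potri.011G081000.v3.0, and low WT counts limit that of Potri.T051700.v3.0.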

Other observations

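Just beyond the threshold stood genes whose libraries were also apart in both media, named here after their values were seen. Nearest to it by rank were Potri.009G041100.v3.0 (log2 fold change -0.53), Potri.015G086400.v3.0 (0.39) and Potri.001G315000.v3.0 (0.43), each with an edgeR adjusted p of 0.0805. Potri.006G129900.v3.0 (chromosome 6) was 0.71 higher in OE on the log2 scale (SE 0.12), with an edgeR adjusted p of 0.0882. Potri.014G106500.v3.0 (chromosome 14) had a log2 value of -0.76 with an SE of 0.13 and an edgeR adjusted p of 0.0806. Potri.011G081400.v3.0, on chromosome 11 at 8120185 to 8121449, stood at -0.46 with an SE of 0.08 (adjusted p = 0.0805 in edgeR) and lies 4 genes from the called Potri.011G081000.v3.0. Between them Potri.011G081200.v3.0 averaged 143 CPM in OE and 142 CPM in WT, a log2 fold change of 0.016 (SE 0.05).

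The immediate neighbours of the called genes and of the HSFA4a locus, 3 on each side, gave 24 tested entries among 48, and the 2 called were the overlapping pair on scaffold 48 counted from each side. Potri.011G142200.v3.0, next to Potri.011G142300.v3.0, averaged 7.54 CPM in OE and 20.1 CPM in WT (log2 fold change -1.19 with an SE of 0.42, adjusted p = 0.439 in edgeR), with the genotypes overlapping in at least 1 medium. The tested neighbours of the HSFA4a locus had log2 fold changes of 0.07 to 0.32, with adjusted p-values of 0.610 to 0.755.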
